A study of Mus musculus with 10 samples.

Results

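The F-box protein genes are described here outside the members already tied to muscle wasting. The genes were taken by symbol from the RefSeq annotation of mouse assembly GRCm38, as every gene with a curated coding transcript whose symbol is Fbxo, Fbxl or Fbxw followed by digits only. Fbxo21, Fbxo30, Fbxo31, Fbxo32 and Fbxo40 were left out. This gave 72 members of 21000 annotated genes, of which 31 are Fbxo, 18 Fbxl and 23 Fbxw genes. The rule uses symbols only and no measured value, though the family was picked for description with earlier results of these data known.

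An F-box protein is the exchangeable subunit of SCF ubiquitin ligases, in which Skp1 joins it to the cullin Cul1 and the RING protein Rbx1. The F-box binds Skp1, and the rest of the protein holds the substrate that is to receive ubiquitin. Fbxw proteins read substrates with WD40 repeats, Fbxl proteins with leucine-rich repeats, and Fbxo proteins with other domains. In skeletal muscle the family is best known for Fbxo32 (atrogin-1), which rises in wasting muscle, and among the members treated here are genes known from the cell cycle, the circadian clock, iron and glycoprotein handling. The glucocorticoid receptor (GR) is the nuclear receptor for corticosterone, and LSD1 is a lysine demethylase that acts on methylated histone H3, including mono- and dimethylated lysine 9 (H3K9me1 and H3K9me2).

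Chromatin immunoprecipitation sequencing was performed on skeletal muscle of C57BL/6J mice, labelled as 10 weeks old, that were either fed (0 h without food) or starved for 24 h. According to the study the muscle came from the limbs, and its text gives another age. The labels name no genotype, drug or other agent for these groups, so the contrast they give is food. The study gives a minimum number of mice per condition and says that experiments were repeated, but how many mice stand behind a library is not given in the sources used here. There were 10 libraries, 1 for each of GR, LSD1, H3K9me1, H3K9me2 and input in each condition, and 8 lists of enriched regions (peaks) were analysed, each called against the input of its own condition. With 1 library per group no difference has a replicate check, so all comparisons below describe these lists, and no p-value is given for any of them. Depth per library is unknown because reads were not analysed here.

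The lists differ widely in length, from 6624 peaks for H3K9me2 starved to 171402 for H3K9me2 fed. GR fed held 14108 peaks and GR starved 37783, while LSD1 fed held 16616 and LSD1 starved 66332. The LSD1 starved list as deposited is many times longer than the peak number in the study's text, which is below that of the fed list, and the reason is not given in the sources used here. Every LSD1 starved value below rests on the deposited list. H3K9me1 fed held 14178 peaks and H3K9me1 starved 38023. For both histone marks the fed and the starved library carry different library codes, so the code and the feeding state cannot be told apart. The peaks lay at skeletal muscle genes: of 10 fixed muscle markers, 7 carried a promoter peak in GR fed, 7 in GR starved, 7 in LSD1 fed and 6 in LSD1 starved, and none of 5 liver, 4 leukocyte and 3 adipocyte markers carried any in these lists.

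Promoters were examined first. A gene was counted as having a promoter peak when the midpoint of a peak lay between 1 kb upstream and 100 bp downstream of any of its transcription start sites, and the values given for a peak are its fold enrichment over input and its q-value, both averaged over the peak by the peak caller. In the fed state GR had a promoter peak at 8 members (11.1%), against 15.1% of all genes. In the starved state it had one at 16 members (22.2%), against 26.0% of all genes. LSD1 was found at 26 member promoters in fed muscle (36.1%), against 25.4% of all genes, and at 16 in starved muscle (22.2%), against 18%. By share in the whole lists the members lay below all genes for GR and above them for LSD1, with the widest distance for LSD1 in fed muscle. These gaps rest on few genes and narrowed under some other choices. With 1 start site per gene GR starved stood at 22.2% against 23.7% and LSD1 starved at 16.7% against 16.4%. With peaks of a q-value of 0.01 or less GR fed stood at 8.33% against 9.03% and LSD1 fed at 15.3% against 11.8%. The place of LSD1 starved turned when its list was shortened, to 1 member (1.39%) against 3.39% of all genes with peaks of a q-value of 0.01 or less.

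The fed and starved counts depend on list length. When the longer list of each antibody was cut to the length of the shorter one by q-value, GR starved was left with 7 members against 8 in GR fed, and LSD1 starved with 3 against 26 in LSD1 fed. Most of the additional GR starved promoters thus rested on peaks from the lower part of that list. The same cut took the whole gene set from 26.0% to 13.7% for GR starved and from 18% to 7.55% for LSD1 starved. At this length the members lay below all genes for LSD1 starved as well (4.17% against 7.55%) and for GR starved (9.72% against 13.7%).

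**Figure D1:**
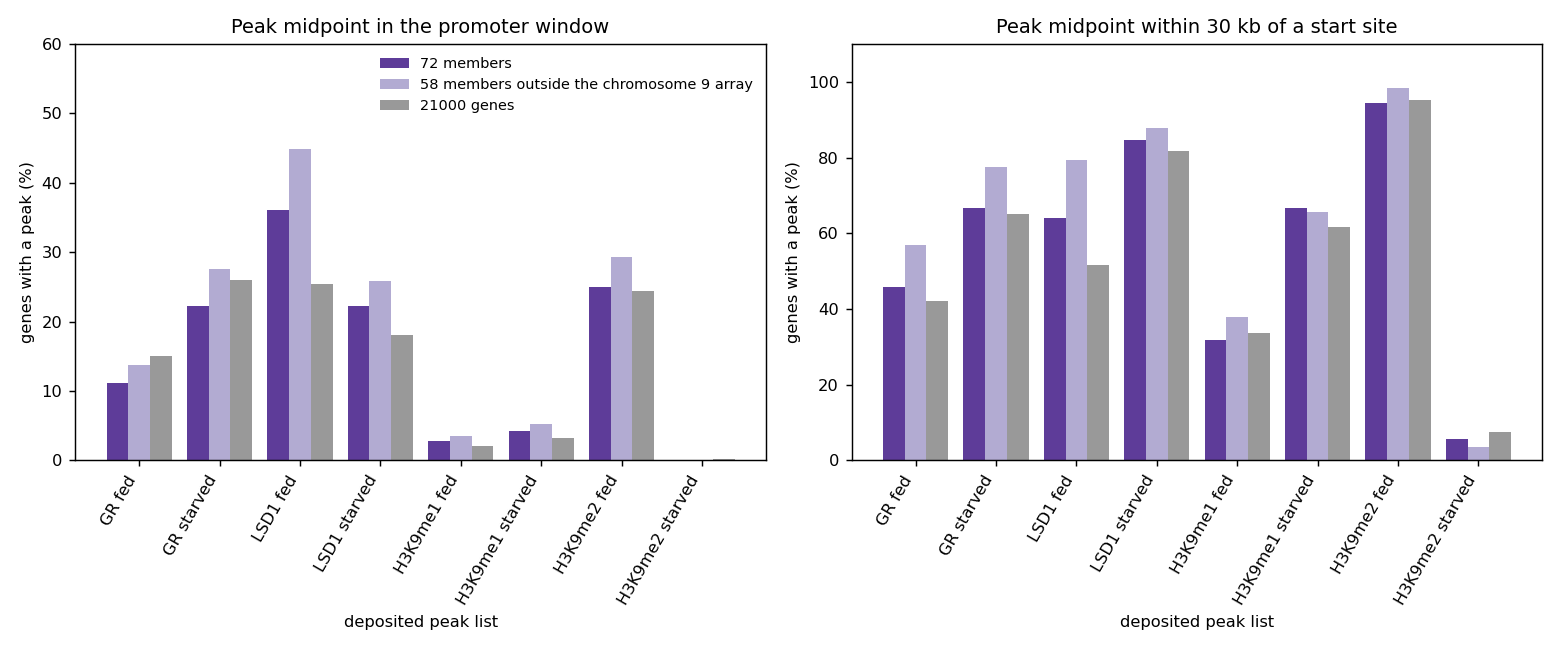
Share of genes (y axis, percent) with a peak midpoint in the promoter window (left) or within 30 kb of a start site (right) in each of the 8 lists (x axis), for the 72 members, the 58 members outside the chromosome 9 array of Fbxw genes, and all 21000 genes. The 72 members stand above all genes at the promoter for both LSD1 lists (36.1% against 25.4% fed) and below for both GR lists (11.1% against 15.1% fed), but LSD1 starved turns at equal list length (4.17% against 7.55%) and GR starved outside the array (27.6% against 26.0%).

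All 8 members with GR at the promoter in fed muscle also had LSD1 there, so the count with both proteins was 8 (11.1%), against 10.6% of all genes. Across all genes 2218 of the 3171 with a GR fed promoter peak (69.9%) had LSD1 as well. In starved muscle 6 members had both (8.33%), against 10.4% of all genes, which is 37.5% of the members with GR and 40.0% of all genes with GR. The GR and LSD1 lists of a condition were called against the same input library, so they share its noise. At 7 of the 8 fed promoters and 5 of the 6 starved ones the GR and LSD1 peaks overlapped by at least 1 bp, and at the others they lay apart in the same promoter.

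GR was called in both conditions at 3 members (4.17%, against 11.0% of all genes), in starved muscle only at 13 (18.1%, against 15.0%) and in fed muscle only at 5 (6.94%, against 4.13%). LSD1 was called in both at 11 (15.3%, against 10.8%), in fed muscle only at 15 (20.8%, against 14.6%) and in starved muscle only at 5 (6.94%, against 7.17%). All 4 of these lists were present at 3 members, among them Fbxl19 and Fbxo11 (4.17% of members, against 4.69% of all genes). No GR or LSD1 promoter peak was called in any list at 35 members (48.6%), against 58.3% of all genes. By count the share of promoters with GR in both states was lower among members than among all genes, and that with LSD1 in both states was higher. The GR share rests on the midpoint rule, since 3 of the 5 fed-only members had a GR starved peak over the fed one.

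**Figure D2:**
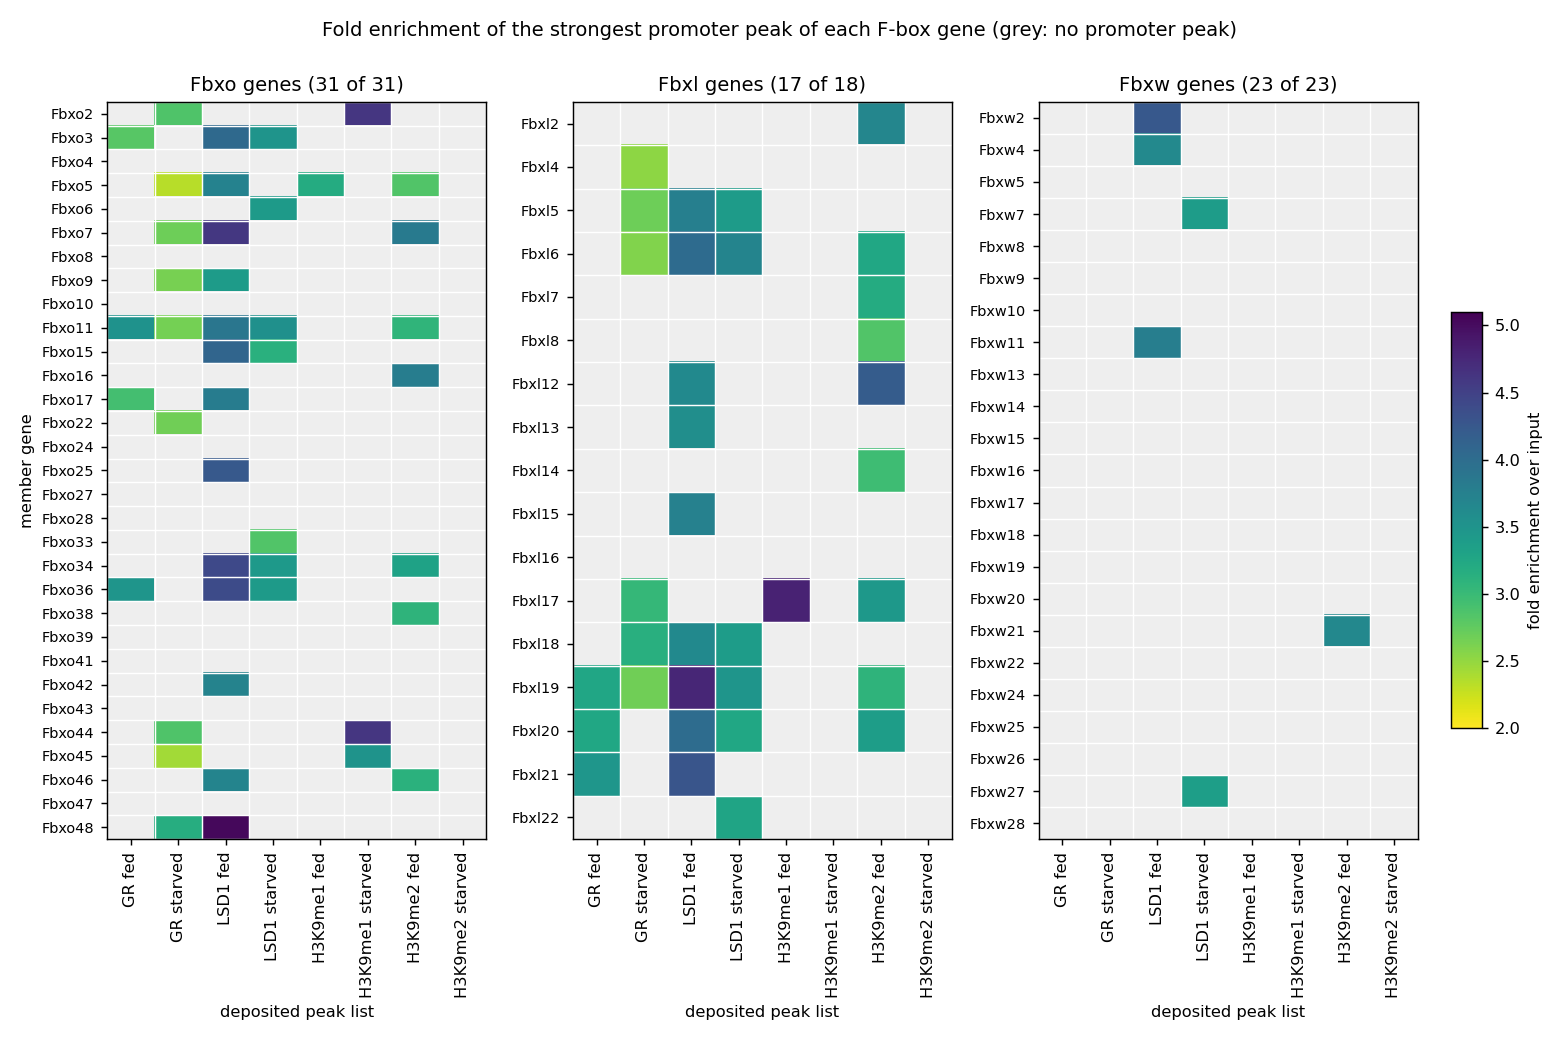
Fold enrichment over input (colour) of the strongest promoter peak of 71 of the 72 members (rows) in each of the 8 lists (columns), with grey where no promoter peak was called. The Fbxw panel is nearly empty, with no GR peak in either state, whereas Fbxl19 and Fbxo11 are filled in all 4 GR and LSD1 columns.

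Fbxl19 carries a CXXC zinc finger that binds unmethylated CpG-rich DNA. GR reached 3.27 in fed (q = 0.00112) and 2.67 in starved muscle (q = 0.0129), and LSD1 4.77 in fed (q = 0.000211) and 3.49 in starved muscle (q = 0.0511). Both proteins were lower in the starved list here. The 4 peaks overlap over 242 bases just upstream of the first start site, chr7:127745892-127746133 (GRCm38, + strand), which are shown because they are the part bound in every list, with CpG dinucleotides in capitals.
Fbxl19 common segment: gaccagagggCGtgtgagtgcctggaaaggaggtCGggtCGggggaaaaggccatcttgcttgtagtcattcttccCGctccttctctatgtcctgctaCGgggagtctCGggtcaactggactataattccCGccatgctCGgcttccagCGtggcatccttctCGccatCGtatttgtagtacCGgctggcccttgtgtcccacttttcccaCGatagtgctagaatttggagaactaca
This segment holds 13 CpG dinucleotides and overlaps no exon of a curated transcript.

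Fbxo11, whose substrates include the repressor BCL6, has 4 start sites. GR reached 3.52 in fed muscle (q = 0.00016), the highest GR fed promoter value of any member, and 2.64 in starved muscle (q = 0.0164). LSD1 had 2 fed promoter peaks, at 3.88 and 3.59, and a 49 bp starved peak at 3.54 (q = 0.0569). Unlike at Fbxl19, the GR and LSD1 peaks of a condition did not overlap at Fbxo11.

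The 5 members with GR at the promoter in fed muscle only were Fbxl20, Fbxl21, Fbxo3, Fbxo17 and Fbxo36. Their GR folds ran from 2.80 to 3.48, 3 of the 5 had a q-value of 0.01 or less, and all 5 had LSD1 at the fed promoter, against 55.5% of the 868 genes with GR in fed muscle only. For 3 of them the label is a matter of position. At Fbxl21, known from the circadian clock, a GR fed peak (3.47) was overlapped by a GR starved peak (3.04) whose midpoint lay 108 bp downstream, just outside the window. Fbxl20, known for turnover of a presynaptic protein, had a GR fed peak of 3.26 and an overlapping starved peak of 2.70 centred 124 bp downstream. At Fbxo3 the fed peak stood at 2.80 and the starved peak at 3.33, centred 197 bp downstream. Only Fbxo17 (2.93) and Fbxo36 (3.48) had no GR starved peak over the fed one. The Fbxo36 peak lies between Fbxo36 and Trip12 and its midpoint is closer to the start of Trip12, itself a ubiquitin ligase.

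GR was called at the promoter in starved muscle only at Fbxl4, Fbxl5, Fbxl6, Fbxl17, Fbxl18, Fbxo2, Fbxo5, Fbxo7, Fbxo9, Fbxo22, Fbxo44, Fbxo45 and Fbxo48. None of these 13 peaks was overlapped by a GR fed peak, but the same share over all genes is not given here, so nothing is read from it. Their folds were low, from 2.34 at Fbxo5 to 3.17 at Fbxo48, and 6 of the 13 had a q-value of 0.01 or less. The strongest were Fbxo48 (3.17, q = 0.00112), Fbxl18 (3.14, q = 0.0018), Fbxl17 (3.04, q = 0.00178) and the peak shared by Fbxo2 and Fbxo44 (2.86, q = 0.00953). Of these 13, 7 had LSD1 at the promoter in fed muscle (53.8%), close to the 48.9% of the 3159 genes with GR in starved muscle only.

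**Figure D3:**
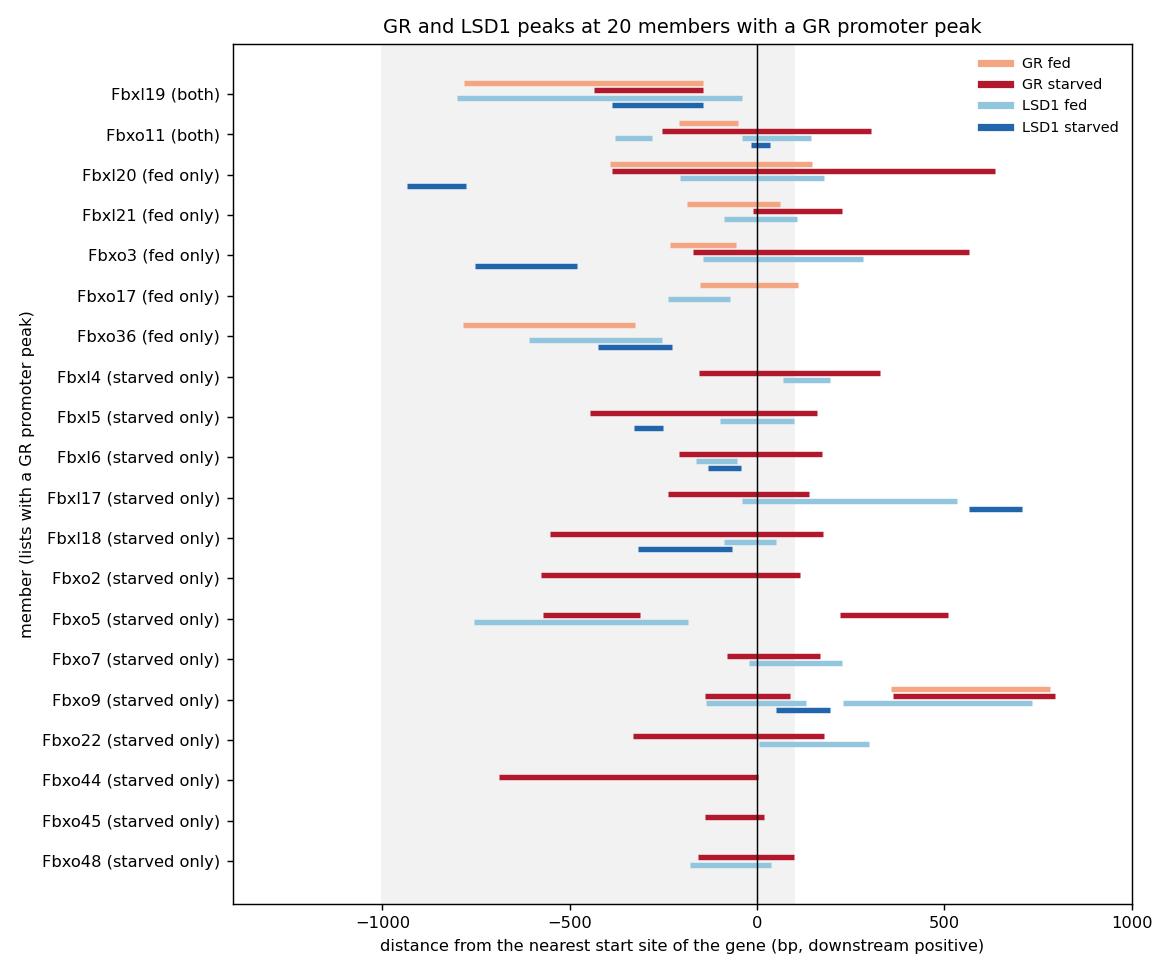
Extent of each GR and LSD1 peak (coloured lines) around the nearest start site (x axis, bp, downstream positive) of 20 of the 21 members with a GR promoter peak, ordered by whether GR was called in both states, fed only or starved only, with the promoter window shaded. At Fbxl20, Fbxl21 and Fbxo3 a GR starved line overlaps the fed line but is centred outside the window.

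Fbxo2 and Fbxo44 encode F-box proteins that recognise glycoproteins or are related to those that do, and they lie head to head on chromosome 4 next to Fbxo6 of the same group. Because their promoters coincide, the GR starved peak at chr4:148160092-148160783 counts for both, and the 16 pairs of GR starved peak and member come from 15 peaks. Fbxo6 had an LSD1 starved promoter peak of 3.41, and a GR starved peak of 3.23 centred 198 bp downstream of a start site that the window did not take.

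Where GR or LSD1 was called at a promoter in both states, the fold was mostly lower in the starved list. For LSD1 the starved value was lower at all 11 such members, with a median ratio of starved to fed of 0.813 (range 0.662 to 0.931), and across all genes the median was 0.871, with 317 of 2278 higher. For GR the 3 members had a median ratio of 0.816 and 1 of them was higher, against a median of 0.908 over 2303 genes. The folds are means over peaks of unequal length, so a longer peak takes in more of its flanks. The median best promoter fold of members was 3.26 in GR fed, 2.68 in GR starved, 3.94 in LSD1 fed and 3.39 in LSD1 starved, beside 3.04, 2.72, 4.00 and 3.46 over all genes with such a peak.

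LSD1 was called alone by midpoint in the promoter window, in fed muscle at Fbxl12, Fbxl13, Fbxl15, Fbxo25, Fbxo42, Fbxo46, Fbxw2, Fbxw4 and Fbxw11, and in starved muscle at Fbxl22, Fbxo6, Fbxo33, Fbxw7 and Fbxw27. These 9 (12.5%, against 5.45% of all genes) and 5 (6.94%, against 4.10%) members had no promoter peak in the other 3 GR and LSD1 lists. GR peaks centred outside the window still overlapped the LSD1 fed promoter peak at Fbxo42 (GR fed) and Fbxw11 (GR starved). At Fbxo6 and Fbxw7 a GR starved peak centred outside the window overlapped an LSD1 starved peak. How many of all genes are classed this way by position was not counted. The highest LSD1 fed promoter value of any member was at Fbxo48 (5.03, q = 0.00036), and the highest LSD1 starved value at Fbxl6 (3.70, q = 0.0237). Of the 28 pairs of LSD1 fed promoter peak and member, 5 had a midpoint closer to the start of another gene, as at Fbxl6, where the peak lies nearer Slc52a2. Fbxo25, the closest relative of atrogin-1 in the family, had an LSD1 fed promoter peak of 4.23 and no GR peak in either state within 30 kb.

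The counts were also split by subfamily, with all genes at 15.1% and 26.0% for GR fed and starved and at 25.4% and 18% for LSD1. Among the 18 Fbxl genes GR was at 4 promoters fed (22.2%) and 7 starved (38.9%), and LSD1 at 10 fed (55.6%) and 7 starved (38.9%), each above the share of all genes. Among the 31 Fbxo genes the counts were 4 (12.9%) and 9 (29.0%) for GR, near the shares of all genes, and 13 (41.9%) and 7 (22.6%) for LSD1. None of the 23 Fbxw genes had a GR promoter peak in either state, and LSD1 was at 3 fed and 2 starved (8.70%), both below the share of all genes. Within 30 kb a GR peak was found at 7 Fbxw genes fed (30.4%, against 42.2% of all genes) and 10 starved (43.5%, against 65.2%), both below all genes. The chromosome 9 array described next held 0 of the 7, 3 of the 10 and 0 of the 3 with an LSD1 fed promoter peak. These low shares of the subfamily thus do not describe the Fbxw genes outside the array, which still had no GR promoter peak.

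Most of the Fbxw genes are a special case. On chromosome 9, 14 of the 23 (Fbxw13 to Fbxw16, Fbxw18 to Fbxw22 and Fbxw24 to Fbxw28) lie side by side at chr9:109139454-109790650, 0.651 Mb of recent duplicates known from oocytes. The array was set apart by position, after the lists had been seen. No GR fed and no LSD1 fed peak lay within 30 kb of any of the 14, against 42.2% and 51.5% of all genes. In the starved lists 3 had a GR peak within 30 kb (21.4%, against 65.2% of all genes) and 10 an LSD1 peak (71.4%, against 81.8%). The stretch itself held 3 GR starved peaks, with folds of 2.60 to 2.62, and 12 LSD1 starved peaks, with folds of 3.15 to 4.94, and of these 0 and 2 had a q-value of 0.01 or less. LSD1 starved peaks had a density of 18.4 per Mb in the array, beside 27.4 per Mb over the whole of chromosome 9. Only reads that mapped to a single place were kept by the authors, and near-identical copies lose such reads; its part in these counts was not tested. Among the 58 members outside the array the promoter shares were 13.8% for GR fed, 27.6% for GR starved, 44.8% for LSD1 fed and 25.9% for LSD1 starved, against 15.1%, 26.0%, 25.4% and 18% of all genes. Without the array GR starved thus lay above all genes and not below them.

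Base composition of the promoters was set beside these counts. A promoter window was called CpG-rich when it had at least 50% GC and an observed to expected CpG ratio of at least 0.6, a division added after the data were seen. CpG-rich windows were found at 23 members (31.9%), against 24.2% of all genes, and at 0 of the 14 array genes, whose median CpG ratio was 0.115 against 0.602 for the other 58. Among the 23 members with a CpG-rich promoter GR was at 4 fed (17.4%) and 9 starved (39.1%), against 31.8% and 50.9% of the 5079 genes with a CpG-rich promoter. LSD1 was at 14 fed (60.9%) and 8 starved (34.8%), against 53.8% and 35.6%. Within this class the share of members was below the background for GR in both states, and above it for LSD1 in fed muscle only. With 23 members these gaps rest on few genes, and nothing further is read from them.

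The wider neighbourhood was examined next, as any peak midpoint within 30 kb of a start site. GR was found near 33 members in fed muscle (45.8%), against 42.2% of all genes, and near 48 in starved muscle (66.7%), against 65.2%. LSD1 was found near 46 in fed muscle (63.9%), against 51.5%, and near 61 in starved muscle (84.7%), against 81.8%. Over a span of this size the shares for GR were close to those of all genes. The largest number of GR peaks near a member was 5 fed and 11 starved, both at Fbxl18, whose neighbour is Actb, and many of those peaks were closest to Actb. The largest number of LSD1 peaks was 6 fed at Fbxo46 and 7 starved at Fbxl15.

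The members had 59 distinct GR fed peaks, 138 GR starved, 87 LSD1 fed and 153 LSD1 starved within 30 kb, of which 35, 71, 42 and 70 were closest to the start site of a gene that is no member. A q-value of 0.01 or less was reached by 44 of the 59, 46 of the 138, 39 of the 87 and 18 of the 153. LSD1 fed peaks overlapped 31 of the 59 GR fed peaks (52.5%), beside 51.9% of the GR fed peaks near any gene. In starved muscle LSD1 overlapped 23 of 138 GR peaks (16.7%), beside 17.6%. The share of GR peaks overlapped by LSD1 near members was thus close to that near all genes in both states.

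A fold of 5 or more was reached by 4 GR fed peaks near members and by no GR starved peak near them. The share of all GR peaks at this fold is not given here, so nothing is read from these counts. Over the whole lists the median fold was 3.29 in GR fed and 2.7 in GR starved, with median lengths of 277 and 313 bp. The strongest lay in an intron of Fbxw8, 11.6 kb downstream of its start. Fbxw8 is the F-box subunit of the Cul7 ligase, which is known to act on the insulin receptor substrate IRS1. The GR fed peak there, of 244 bp, had a fold of 9.28 (q = 2.77e-34), while an LSD1 fed peak of 4.02 (q = 0.0141) lay over it, as did a GR starved peak of 4.22 (q = 1.81e-09) that spread over 1187 bp. No LSD1 starved peak and no H3K9 peak overlapped it. The GR response element is a palindrome, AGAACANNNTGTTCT, in which N is any base, and the peak held no match with at most 1 mismatch in the 12 fixed bases. Its closest match has 2, A1G and T15A counted from the first base of the palindrome. The whole peak, chr5:118143720-118143963 (GRCm38, + strand), is shown because it is the most enriched GR site near any member, with that closest match in capitals.
Fbxw8 intronic GR peak: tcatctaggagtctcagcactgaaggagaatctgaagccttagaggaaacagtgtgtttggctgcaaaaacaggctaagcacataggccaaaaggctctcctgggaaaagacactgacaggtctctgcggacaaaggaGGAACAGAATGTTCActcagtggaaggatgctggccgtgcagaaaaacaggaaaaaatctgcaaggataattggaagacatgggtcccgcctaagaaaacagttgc
Fbxw8 had 4 GR fed peaks and 5 LSD1 fed peaks within 30 kb, and each of the 4 GR fed peaks was overlapped by LSD1. The LSD1 fed peak 26.6 kb downstream, over an exon of Fbxw8, had a fold of 5.60 (q = 3.69e-05). In starved muscle 3 GR peaks and 1 LSD1 peak were called in the same span.

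The second GR fed peak by fold, 6.76 (q = 2.53e-23), lay 22.2 kb upstream of Fbxw5 and closest to Ptgds. The GR starved peak over it had a fold of 3.00 over 1103 bp, against 417 bp in fed muscle. The third, 6.39 (q = 3.91e-18), lay 24.4 kb upstream of Fbxo45 in the promoter of Smco1, with a GR starved peak of 3.42 and an LSD1 fed peak of 4.06 over it. Fbxo45 itself, which pairs with the neuronal ligase Mycbp2, had a GR starved promoter peak of 2.43 (q = 0.0418). These 2 strong sites are thus closer to other genes than to the member.

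Fbxw11 (beta-TrCP2) reads phosphorylated substrates such as beta-catenin and the inhibitor of NF-kappaB. Its strongest GR peak lay 19.1 kb upstream, over the last exon of the neighbouring gene Stk10, with a fold of 5.05 in fed (q = 3.44e-13) and 4.79 in starved muscle (q = 9.1e-14), and these values lay closer together than at the other 3 strong sites. An LSD1 fed peak of 4.09 overlapped it. A weaker GR peak 20.1 kb upstream, 2.96 in fed (q = 0.0227) and 2.64 in starved muscle (q = 0.0469), held a GRE-like sequence, meaning a match to the palindrome with at most 1 mismatch. At the promoter of Fbxw11 LSD1 fed had a fold of 3.77, and a GR starved peak of 2.38 was centred 122 bp downstream, outside the window.

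**Figure D4:**
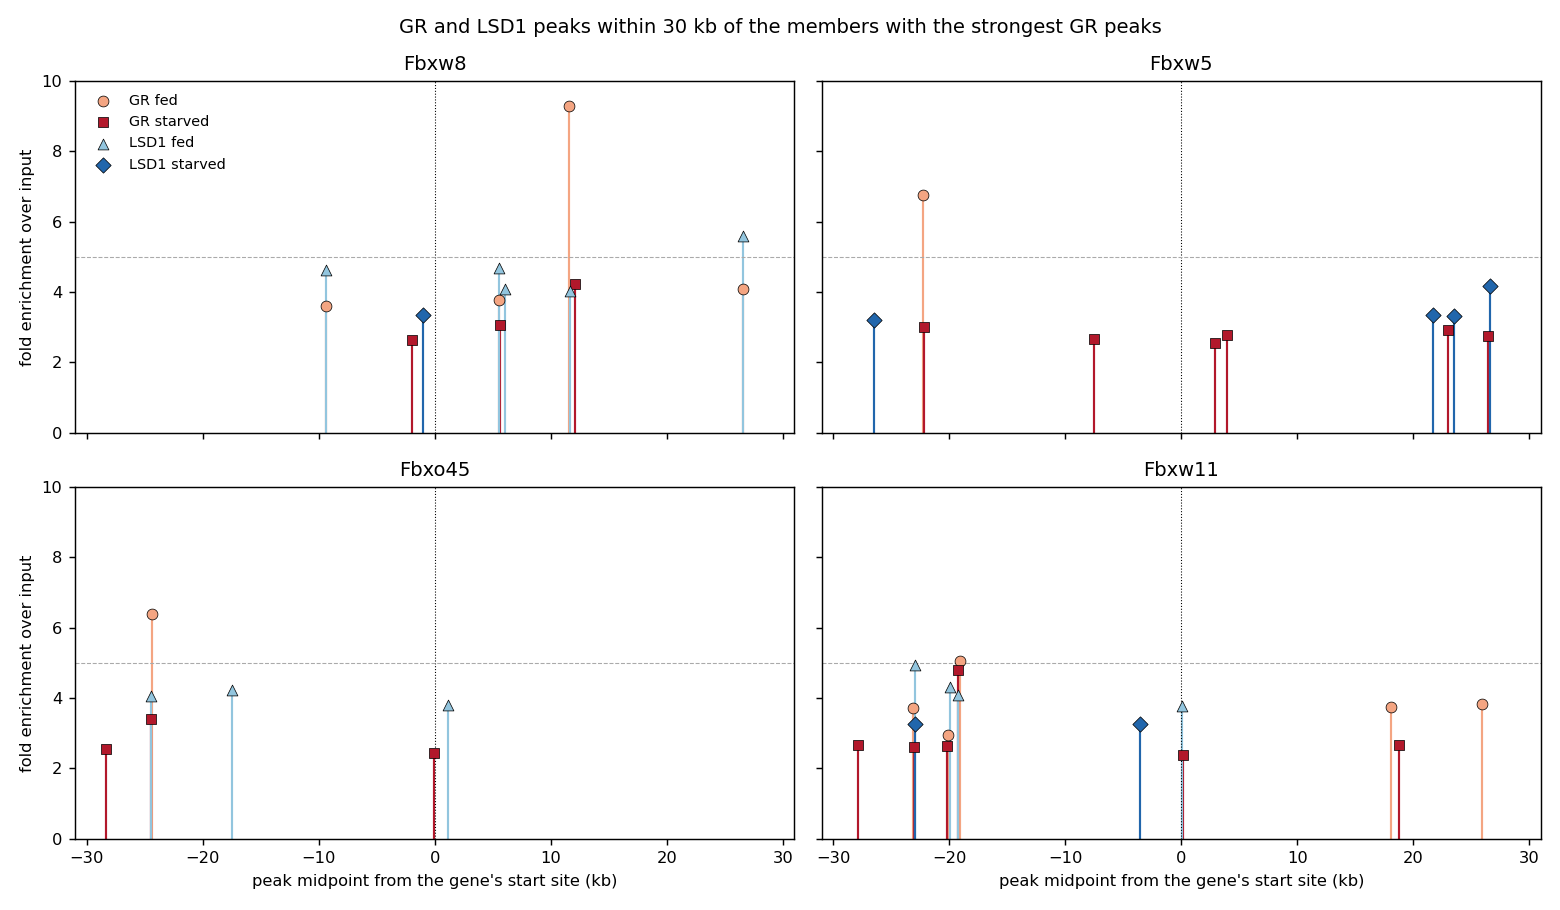
Fold enrichment over input (y axis) of every GR and LSD1 peak against its distance from the start site (x axis, kb) at the 4 members with a GR peak of 5-fold or more (dashed line). The GR fed peak of Fbxw8 reaches 9.28, and at Fbxw11 the GR fed and starved peaks stand at 5.05 and 4.79.

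A GRE-like sequence inside a GR peak within 30 kb was found for Fbxw10 and Fbxw11 only (2.78% of members, against 1.60% of all genes). Both sites are shown with 13 flanking bases on each side and the match in capitals. The Fbxw11 site, chr11:32622345-32622385 (GRCm38, + strand), lies in an intron of Stk10 and differs from the palindrome by A3G. The Fbxw10 site lies in a GR fed peak of 3.23, 21.0 kb upstream and closest to Trim16, and differs by C5G.
Fbxw11 GRE-like site: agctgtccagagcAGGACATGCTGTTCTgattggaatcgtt
Fbxw10 GRE-like site: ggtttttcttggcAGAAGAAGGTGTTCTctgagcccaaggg
The Fbxw11 site was inside the GR peaks of both states and the Fbxw10 site inside that of fed muscle only.

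NRF1 is a transcription factor that binds the palindrome GCGCATGCGC at promoters of many housekeeping genes. The palindrome, which reads the same on both strands, was found without mismatch in the promoter windows of Fbxl5, Fbxo9 and Fbxo42 (4.17% of members, against 1.75% of all genes). Each is shown with 15 flanking bases on each side.
Fbxl5, chr5:43782123-43782162: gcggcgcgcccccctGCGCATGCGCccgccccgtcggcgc
Fbxo9, chr9:78108636-78108675: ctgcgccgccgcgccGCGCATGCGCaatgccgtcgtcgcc
Fbxo42, chr4:141147894-141147933: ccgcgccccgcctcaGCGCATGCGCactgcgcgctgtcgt
All 3 lie within 10 bp of a start site (GRCm38, + strand). At Fbxl5, the iron-sensing subunit that removes iron regulatory protein 2, the motif lay inside the GR starved promoter peak (2.69, q = 0.0153) and the LSD1 fed promoter peak (3.77, q = 0.0317). At Fbxo42 it lay inside an LSD1 fed promoter peak (3.71, q = 0.0343) and a GR fed peak (2.95, q = 0.02) centred 128 bp downstream, outside the window. At Fbxo9 it lay in no GR or LSD1 peak, since the promoter peaks of that gene were at its other start site.

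Other members with known functions had peaks at or near the start site. Fbxw7, which removes cyclin E, Myc and Notch, had an LSD1 starved promoter peak of 3.39 (q = 0.0243) and an LSD1 fed peak of 3.68 centred 1.12 kb upstream that overlapped it. Its other LSD1 fed peak had the highest LSD1 fold near any member, 7.08 (q = 2.28e-10), but it covers 65 bp of intron that are repeat-masked over 100% of their length, and no other GR or LSD1 list has a peak there. Fbxo7, mutated in an inherited parkinsonism, had LSD1 at 4.60 in fed muscle (q = 0.00236) and GR at 2.68 in starved muscle (q = 0.0372) over the same start site. Fbxl4, needed to keep mitochondrial DNA, had GR at 2.53 in starved muscle and an LSD1 fed peak of 3.97 centred 132 bp downstream. Fbxo22, which acts on KDM4 demethylases, had GR at 2.67 in starved muscle and LSD1 at 4.15 in fed muscle, the latter centred 152 bp downstream. The LSD1 fed peaks of Fbxl4 and Fbxo22 thus lay outside the promoter window. By midpoint in the window, only LSD1 fed and GR starved were called at 4 members (5.56%), near the 4.23% of all genes, so no shared pattern is read from these genes.

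Fbxo5 (Emi1), the inhibitor of the anaphase-promoting complex, had GR at 2.34 in starved muscle, the lowest GR promoter value, and LSD1 at 3.72 in fed muscle. Fbxl22, a sarcomeric F-box protein of heart and muscle, had an LSD1 starved promoter peak of 3.29, while 2 GR fed peaks of 3.17 and 3.05 lay in the gene body and were both overlapped by GR starved peaks. Fbxl2 had no GR or LSD1 promoter peak, and its strongest site was a 49 bp LSD1 starved peak of 5.00 in an intron. Fbxo4, which targets cyclin D1, had no promoter peak either, and its LSD1 fed peak of 5.29 lay 16.3 kb upstream in the promoter of AW549877, where all 4 lists had a peak. Fbxo38 had LSD1 at 3.63 in fed muscle, centred 111 bp downstream. No GR or LSD1 peak of any of the 4 lists lay within 30 kb of Fbxo8, Fbxo28, Fbxw13, Fbxw18, Fbxw20 or Fbxw21, the last 4 of which belong to the array.

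The histone marks were counted in the same way. H3K9me1 had a promoter peak at 2 members in fed muscle (2.78%, against 2.08% of all genes), Fbxl17 at 4.81 and Fbxo5 at 3.20, and at 3 in starved muscle (4.17%, against 3.20%), Fbxo2 and Fbxo44 with a shared peak of 4.61 and Fbxo45 at 3.51. The 3 starved promoters had GR in the starved state as well, but Fbxo2 and Fbxo44 share 1 GR peak. H3K9me1 starved peaks overlapped 1 of the 15 GR starved promoter peaks of members, beside 3.52% of 5226 for all genes. Nothing is read from so few sites. H3K9me2 had a promoter peak at 18 members in fed muscle (25.0%, against 24.4% of all genes), the highest at Fbxl12 (4.19, q = 0.00138), and at 0 in starved muscle, against 0.190% of all genes (40 of 21000). Of the 18, 10 were Fbxl genes. When the H3K9me2 fed list was cut to the length of the starved one by q-value, no member kept a promoter peak, so the counts were 0 and 0. Over all genes 1.12% kept one in fed muscle at that length, against 0.190% in starved muscle.

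Within 30 kb, H3K9me1 was found near 23 members in fed muscle (31.9%, against 33.6% of all genes) and near 48 in starved muscle (66.7%, against 61.6%). H3K9me2 was found near 68 in fed muscle (94.4%, against 95.1%) and near 4 in starved muscle (5.56%, against 7.45%), namely Fbxw4, Fbxw15, Fbxw17 and Fbxw19. The most H3K9me2 fed peaks near a member were the 23 around Fbxw7. LSD1 and H3K9me2 were at the same promoter in fed muscle for 10 members (13.9%, against 11.2% of all genes). H3K9me2 fed peaks overlapped 7 of the 28 LSD1 fed promoter peaks of members (25.0%), against 27.5% of the 5263 LSD1 fed promoter peaks of all genes, and H3K9me2 starved peaks overlapped 0 of the 28, against 0.0190%. None of the 8 GR fed promoter peaks of members was overlapped by H3K9me2 fed, beside 33.5% of the 2976 GR fed promoter peaks of all genes, while 5 of the 15 GR starved ones were, beside 33.5% of 5226. With only 8 GR fed peaks that difference rests on few sites.

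The partners of F-box proteins were counted from a fixed list of 17 genes of the SCF and neddylation machinery. GR was at the promoter of 6 of them in fed muscle (35.3%) and of 7 in starved muscle (41.2%), and LSD1 at 8 (47.1%) and 4 (23.5%), against 15.1%, 26.0%, 25.4% and 18% of all genes in the same order. Rbx1, the RING subunit, had GR at 2.93 fed and 2.83 starved and LSD1 at 4.44 fed and 3.21 starved. Skp1, the adaptor, had GR at 2.96 fed and 2.61 starved and LSD1 at 4.03 fed. Cul1, the scaffold, had only a GR starved peak of 2.77. Of 6 F-box genes with other names (Skp2, Btrc, Ccnf, Kdm2a, Kdm2b and Fbh1), 0 had GR at the fed and 4 (66.7%) at the starved promoter, and 3 and 2 (33.3%) had LSD1. Of the 5 F-box genes left out of the members, 3 had GR at the promoter in each state, and 4 and 3 had LSD1. With 6 and 5 genes these counts are given only beside the same shares of all genes, and nothing is read from them.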

How the data were processed

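Libraries were sequenced as single-end reads and, by the methods of the study, mapped by the authors to mm10 (GRCm38) with Bowtie, kept where they mapped to 1 place, cleared of a blacklist made for the human genome, and used to call broad peaks with MACS2 against the input of the same condition. The peak names in the deposited lists name Bowtie2, and the read conversion was by bcl2fastq 2.20.0.422 per the labels. The deposited lists give a fold enrichment (a ratio over input), the −log10 of the p-value and of the q-value, and a score that was not used. The methods state a false discovery threshold of 0.01, whereas the deposited lists reach q-values of 0.0925 to 0.0998, and were used whole.

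Genes, start sites and sequences were taken from RefSeq on GRCm38, with all 72 members matched by symbol. Peaks were assigned by midpoint with Python 3.11.15, pandas 2.3.3, numpy 2.4.6 and pysam 0.24.0, and the genome was indexed with samtools 1.23.1. The assignment was tested on simulated data. The comparisons are counts of genes beside the same count over all 21000 genes; no test was possible with 1 library per group, and depth is unknown. The members and gene lists were chosen with earlier results of these data known. Genes named in the text were those with promoter peaks in all 4 GR and LSD1 lists, with a GR peak of 5-fold or more within 30 kb, with the 4 strongest GR promoter peaks of 1 state only, with no GR or LSD1 peak within 30 kb, with the strongest promoter peak of a list, and 19 members chosen for known functions. Members named in counts of 5 or fewer or in full lists, and other genes singled out (Fbxo25, Fbxl15, Fbxl18, Fbxo42, Fbxo46, Fbxw10), were named after their values were seen. The values of 1 member are not reported here by name, though it stays in all counts. The input libraries were used only through the peak calls.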

Additional observations from a re-analysis of the deposited data

Results flagged for a closer look

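GR and LSD1 moved in opposite directions between the fed and starved lists when promoter peaks were counted. The number of members with a GR promoter peak rose by 8 from fed to starved, and the number with LSD1 fell by 10. The same directions hold over all genes, where GR went from 3171 to 5462 and LSD1 from 5337 to 3784. The difference was not tested, since each list comes from 1 library, and at equal list length GR stood at 8 fed and 7 starved. Within 30 kb both counts were higher in the starved lists, GR at 33 fed and 48 starved (42.2% and 65.2% of all genes) and LSD1 at 46 and 61 (51.5% and 81.8%).

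H3K9me1 and H3K9me2 also moved in opposite directions. At promoters the H3K9me1 count rose by 1 and the H3K9me2 count fell by 18, while over all genes the shares went from 2.08% to 3.20% and from 24.4% to 0.190%. At equal list length H3K9me1 was at 2 member promoters in each state and H3K9me2 at 0, so the opposite directions were no longer seen among members. In the whole lists and within 30 kb the H3K9me1 count rose by 25 and the H3K9me2 count fell by 64. These differences were not tested either, and for both marks the library code changes together with the feeding state.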

How the results depend on the processing

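Of 88 counts recomputed under another choice, 62 stayed within 1.5 times the value given and 26 did not. Brackets give the share of members against that of all genes under the same choice. The fed and starved lists of an antibody were first cut to equal length by q-value. Members with a promoter peak were then 7 for GR starved (9.72% against 13.7%), 3 for LSD1 starved (4.17% against 7.55%) and 0 for H3K9me2 fed (0% against 1.12%). With peaks of q-value of 0.01 or less, promoter counts were 7 for GR starved (9.72% against 12.7%) and 11 for LSD1 fed (15.3% against 11.8%). They were 1 for LSD1 starved (1.39% against 3.39%), 1 for H3K9me1 fed (1.39% against 0.714%) and 4 for H3K9me2 fed (5.56% against 6.00%). At that limit counts within 30 kb were 30 for GR starved (41.7% against 39.3%) and 28 for LSD1 fed (38.9% against 32.0%). The others were 16 for LSD1 starved (22.2% against 21.4%), 10 for H3K9me1 fed (13.9% against 15.3%) and 1 for H3K9me2 starved (1.39% against 1.28%). The same limit left 4 fed (5.56% against 3.50%) and 0 starved (0% against 1.38%) promoters of members with both GR and LSD1. A window of 10 kb gave 20 members for GR fed, 26 for H3K9me1 starved and 2 for H3K9me2 starved, and peaks closest to the member alone gave 16 for GR fed and 30 for LSD1 fed. A promoter reaching 1 kb downstream gave 6 for H3K9me1 starved (8.33% against 6.00%) and 30 for H3K9me2 fed (41.7% against 34.2%). At most 1 mismatch gave 8 members with the NRF1 motif (11.1% against 12.1%). No mismatch (0% against 0.0905%), or 10 kb (0% against 0.610%), left 0 members with a GRE-like sequence. Without the chromosome 9 array, a choice made after the data were seen, 2 members were near H3K9me2 starved (3.45% against 7.45%). The other alternatives, which were any base of the peak in the window, 1 start site per gene and overlapping GR and LSD1 peaks, moved no count by over 1.5 times. In each list cut to fewer peaks the lower count follows from the smaller number of peaks, and the causes of the other shifts were not tested.

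No paired analysis was possible because each group has 1 library and no test was made. With 1 library per list, no known depth and folds averaged over peaks of unequal length, a gene without a peak is a gene without a call in that list, and a difference between the fed and starved lists cannot be told apart from a difference between 2 libraries.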
